A study of Mus musculus with 6 samples.

Results

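The cytosolic ribosomal protein genes are described here in a mouse prostate cancer line of C57BL/6 origin, TRAMP-C2. They were chosen by name: every protein-coding gene of the count table whose GENCODE M21 symbol is Rpl or Rps with a number, with or without a final a or x, and Rplp0, Rplp1, Rplp2 and Rpsa. The rule found 76 of the 54446 listed genes, 46 of the large and 30 of the small subunit. It leaves out Rps3a1, Fau and paralogs such as Rpl22l1, which are given separately. The study holds 3 groups of 2 libraries from poly(A) RNA: untreated cells (Ctrl), cells exposed to 2 µM oxaliplatin (Oxali) and cells exposed to 2 µM cisplatin (Cispl), each for 24 h. Each drug is a platinum compound that forms DNA adducts. All groups shared a medium with serum, bovine insulin and dehydroisoandrosterone. The line comes from a prostate tumour of a TRAMP mouse, whose transgene is driven by the probasin promoter. Separate cultures are not named for the replicates, so that the p values measure the spread between these libraries, which may be technical. Normalised counts are counts divided by a size factor per library.

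A ribosome joins a large subunit, which holds the peptidyl transferase centre and the exit tunnel for the new protein, to a small subunit, which holds the messenger RNA and reads its codons. Each subunit is built around ribosomal RNA with a single copy of nearly every ribosomal protein, so that cells need the proteins in matched amounts. Messenger RNAs of ribosomal proteins start with a C in a run of pyrimidines, the 5′ terminal oligopyrimidine (TOP) motif, through which their translation follows growth signals. Free Rpl5 and Rpl11 can bind Mdm2 and so stabilise p53 when ribosome assembly fails. Mammalian genomes also hold many processed pseudogenes of these genes, intronless copies of the messenger RNA, whose reads are hard to tell from those of the gene itself.

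Both features can be read in the sequences. For 56 of the 76 members, RefSeq promoter windows (GRCm38.p6) were at hand, 66 windows in all, each of 300 bases with 50 after the annotated start. Shown here are 60 bases around the start, 35 before and 25 after it, of Rpl18, Rplp2 and Rps6, which rose after both drugs, and of Rpl15, which rose after Cispl. Capitals mark the longest run of C and T near the start.
Rpl18 (chr7:45718036-45718095, plus strand): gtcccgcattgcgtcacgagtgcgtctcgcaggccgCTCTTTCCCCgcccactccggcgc
Rplp2 (chr7:141447616-141447675, plus strand): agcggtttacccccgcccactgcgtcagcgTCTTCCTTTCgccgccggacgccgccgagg
Rpl15 (chr14:18270962-18271021, minus strand): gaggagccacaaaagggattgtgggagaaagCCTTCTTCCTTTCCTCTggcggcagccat
Rps6 (chr4:86857343-86857402, minus strand): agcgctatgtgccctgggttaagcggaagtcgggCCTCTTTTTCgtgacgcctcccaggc
The run was 17 bases long in Rpl15 and 10 bases in each of the other 3 windows. Between 20 bases before and 50 after the start, 71.2% of member windows held a run of C and T of at least 8 bases, against 25.4% of all 32851 windows. The letters CTTTCC, which can lie within such a run, occurred there on the gene's strand in 18 of 66 member windows (27.3%, against 3.24% of all windows) and on the other strand in 0. In the whole 300 bases, CCGGAAG, the core bound by ETS factors such as GABP, was in 36.4% of member windows on either strand, against 8.86% of all. TATAAA on either strand between 40 and 15 bases before the start was in 0% of member windows and in 2.48% of all windows. These matches are descriptions of the letters, and several members have more than 1 window.

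The second feature is the likeness of members to their copies. Lines of 50 coding bases from the GENCODE M21 transcripts are shown for 4 members that passed a test below and have a near-identical copy. Capitals mark the bases that differ.
Rps7: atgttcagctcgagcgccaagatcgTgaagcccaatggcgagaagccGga
Gm6472: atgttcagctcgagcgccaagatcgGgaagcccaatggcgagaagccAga
Rpl3: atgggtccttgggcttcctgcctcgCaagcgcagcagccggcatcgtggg
Rpl3-ps1: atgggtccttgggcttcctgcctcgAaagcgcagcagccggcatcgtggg
Rps20: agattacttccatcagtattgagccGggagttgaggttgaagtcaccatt
Gm4332: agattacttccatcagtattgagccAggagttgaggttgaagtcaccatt
Rpl10a: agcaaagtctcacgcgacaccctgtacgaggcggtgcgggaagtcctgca
Rpl10a-ps1: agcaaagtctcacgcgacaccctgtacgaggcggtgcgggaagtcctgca
The Rps7 lines are coding bases 1 to 50, those of Rpl3 32 to 81, those of Rps20 299 to 348 and those of Rpl10a 4 to 53. Rps7 (chr12:28630854-28635953, minus strand) matches Gm6472, a pseudogene on another chromosome (chrX:152909505-152910155, minus strand), at 99.4% of 651 bases. Rpl3 (chr15:80077791-80091868, minus strand) matches Rpl3-ps1 (chrX:13202571-13203780, plus strand) with 2 mismatches in 1210 bases. Rps20 (chr4:3831334-3835665, minus strand) matches Gm4332 (chr3:119709516-119709861, plus strand) with 1 mismatch in 346 bases. Rpl10a (chr17:28328471-28331033, plus strand) and Rpl10a-ps1 (chr1:64993951-64994604, minus strand) had no mismatch in 648 aligned bases, so that a read within them cannot be told apart. Coordinates are on GRCm38.

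Ribosomal protein genes took a similar share of the counts in all groups. Of all counts, members held 4.84% and 4.48% in Ctrl, 4.83% and 4.87% in Oxali and 4.90% and 4.73% in Cispl replicates 1 and 2. Ctrl replicate 2 was the lowest library, and Ctrl replicate 1 lay within the range of the drug-treated libraries, so that the groups overlapped. The ratio of large to small subunit counts was 1.5643 and 1.5680 in Ctrl, 1.5770 and 1.5741 in Oxali and 1.5925 and 1.6038 in Cispl cells. Unlike the share, this ratio did not overlap between the groups, a difference that was not tested. All 76 members passed the filter on low counts, and 75 had a mean of at least 1000 normalised counts. Total counts were 21345312 to 24041767 per library. Of prostate epithelial markers, Krt8 had 95.1 to 135 normalised counts and Pbsn 0 in every library, while the mesenchymal gene Vim had 52895 to 68052. Pbsn is a defining marker of luminal prostate cells, and a count of 0 allows up to 0.125 to 0.141 CPM (3 counts). Of genes of other cell types, the macrophage gene Cd68 had at least 30.7 normalised counts in every library, while leukocyte Ptprc had at most 1.02 and the macrophage marker Adgre1 0. Endothelial Pecam1 and Cdh5 had at most 7.84 and 1.02, and muscle Acta1 and Des at most 27.1 and 16.4. In such bulk libraries, fewer cells of a type and less RNA per cell cannot be told apart.

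Levels of members were compared as mean normalised counts per kilobase of transcript. The highest were those of Rplp1 (83789), Rpl41 (57718), an intersubunit bridge protein, Rplp0 (52042) and Rps18 (48079), a protein of the small subunit head. Rplp0 and Rplp1 belong to the P stalk, which recruits elongation factors. The lowest were Rpl5 (793), Rpl12 (1008), Rpl10 (1060) and Rpl27 (2080), and the highest level was 106 times the lowest. For these 4 lowest members, most reads had been counted on pseudogenes. With the counts of copies added, the span shrank to 37.1-fold and the median rose from 13259 to 19944 counts per kilobase of transcript. The transcript taken for a gene was much longer than its coding sequence in some members, such as Rps15a (5179 against 390 bases), so that levels per kilobase of coding sequence were added after the lengths were seen. On that scale Rpl41 (447891, with 75 coding bases), Rplp1 (122253), Rpl39 (78157), which lines the exit tunnel, and Rplp0 (74314) were highest. The same 4 members were lowest, from Rpl10 (1412) to Rpl27 (3731), and the span was 317-fold, or 50.6-fold with copies.

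Copies were genes annotated or named as pseudogenes, assigned to a member by name or by a match of at least 95% over at least 100 bases. A few of them, Rpl10-ps3 and Rps12-ps3 among them, carry a pseudogene name but are annotated as protein-coding. There were 759 of them, 685 with counts, and 74 members had at least 1. They held 26.5% to 27.9% of the joint count of members and copies in each library. In 23 members the copies held over 50% of the joint count, in 25 under 1%, and the median was 14.5%. Rpl10, which sits near the peptidyl transferase centre, had a mean of 911 counts over the 6 libraries, while its copies Rpl10-ps1 and Rpl10-ps3 had 12479.9 and 10113. Rpl5, which carries the 5S ribosomal RNA into the large subunit, had 1628 counts beside 26483 on Gm15500, with which it is identical over 1018 bases. Rpl12 of the stalk base had 1257 beside 28166 on Gm10275, and Rps12 2914 beside 22890.3 on Rps12l1. Expected counts were not whole numbers in any library for 68 members, against 27.8% of all genes tested, as happens where a read is divided among genes. The median gap between replicates of a member was 0.072 on the log2 scale, and 0.062 with copies added. For the 23 members it was 0.086 alone and 0.059 with copies.

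**Figure D1:**
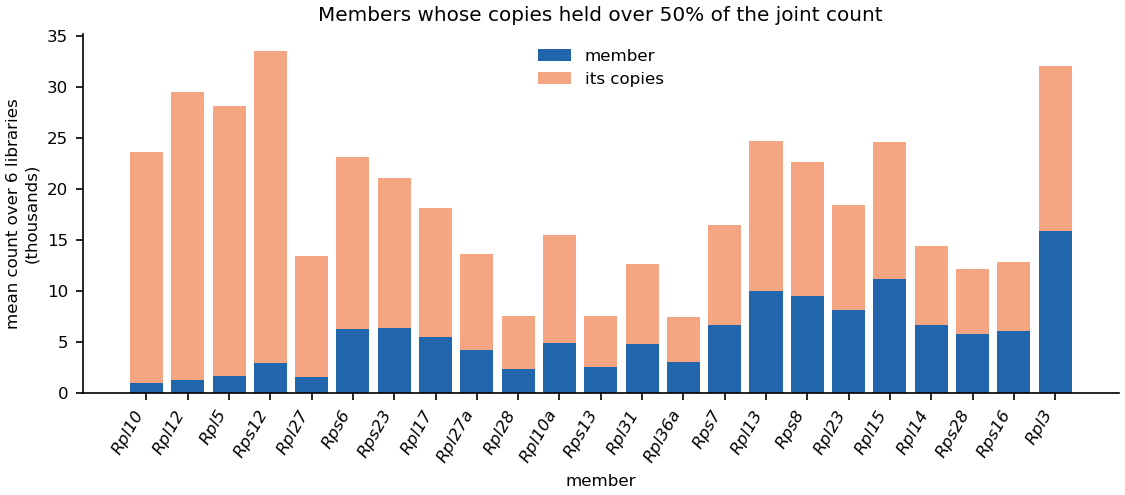
Mean count over the 6 libraries (in units of 1000, linear axis from 0) of the 23 members whose copies held over 50% of the joint count, with the member in blue and its copies in orange. From Rpl10 (96.1%) at the left to Rpl3 (50.4%) at the right, the blue part is the smaller.

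Oxaliplatin was compared with control to ask how the drug at 2 µM changed the transcripts. After Oxali, 15 members were higher (10.7% of all 14956 genes tested were) and 3 lower (9.50% of all genes). Changes were small: the median log2 fold change of the 76 members was 0.10 (a 1.07-fold level), against -0.0029 for all genes tested, and 67 of 76 were positive. The members ranged from -0.21 to 0.33. At an unadjusted p under 0.05, 31 members passed.

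Rps7, a small subunit protein mutated in some Diamond-Blackfan anaemia families, had the largest rise, with normalised counts of 5777 and 5748 in Ctrl, 7561 and 6965 in Oxali and 6832 and 6713 in Cispl cells. The Oxali libraries lay above all Ctrl libraries, a log2 change of 0.33 (SE 0.051, DESeq2 adjusted p = 1.32e-09). With its copies added the log2 fold change was 0.08 (SE 0.045, DESeq2 adjusted p = 0.207), so that the call was lost. Rpl24, which reaches from the large subunit towards the small one, had 9766 and 8884 in Ctrl, 11447 and 11259 in Oxali and 11953 and 11366 in Cispl cells. Both drug groups were above both Ctrl libraries. Its log2 fold change after Oxali was 0.28 (SE 0.052, DESeq2 adjusted p = 8.34e-07), and 0.22 (SE 0.038, DESeq2 adjusted p = 3.79e-07) with copies. Rplp2, a P stalk protein with almost no reads on copies (0.0214%), had 10516 and 9457 in Ctrl, 11647 and 11723 in Oxali and 11424 and 11174 in Cispl cells. It rose by 0.23 (SE 0.052, DESeq2 adjusted p = 0.00013) on the log2 scale. Rpl6 had 20021 and 18909 in Ctrl, 21439 and 22851 in Oxali and 22133 and 22587 in Cispl cells, with no overlap between treated and untreated libraries. Its change after Oxali was 0.19 (SE 0.044, DESeq2 adjusted p = 0.000239). Rps6, the substrate of S6 kinase, had 5963 and 5638 in Ctrl, 6222 and 6841 in Oxali and 6463 and 6482 in Cispl cells. Its log2 fold change after Oxali was 0.17 (SE 0.057, DESeq2 adjusted p = 0.0135), and 0.07 (SE 0.036, DESeq2 adjusted p = 0.135) with copies. For Rpl17, a protein at the exit tunnel, the log2 fold change was 0.23 (SE 0.057, DESeq2 adjusted p = 0.000638) alone and -0.04 (SE 0.039, DESeq2 adjusted p = 0.594) with copies, which turned its sign.

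The 3 members below were lower after Oxali. Rpl3, a core protein beside the peptidyl transferase centre, had 16585 and 15774 in Ctrl, 14007 and 14922 in Oxali and 16556 and 17099 in Cispl cells. Both Oxali libraries lay below all others, with a log2 change of -0.16 (SE 0.045, DESeq2 adjusted p = 0.00232) against Ctrl. Its copy Rpl3-ps1 had 17657 and 16768 in Ctrl, 14282 and 13602 in Oxali and 17098 and 16701 in Cispl cells, and the log2 fold change of member and copies together was -0.23 (SE 0.034, DESeq2 adjusted p = 5.13e-10). Rpl10a, the protein of the mobile L1 stalk, had 5259 and 4616 in Ctrl, 3995 and 4556 in Oxali and 5274 and 5343 in Cispl cells. Oxali was below the other groups in each library, at -0.21 (SE 0.077, DESeq2 adjusted p = 0.0307). The identical Rpl10a-ps1 had 11063 and 10424 in Ctrl, 9507 and 9229 in Oxali and 11819 and 11105 in Cispl cells and a log2 change of -0.20 (SE 0.048, DESeq2 adjusted p = 0.000405). Rps20, at the head of the small subunit, had 9479 and 8711 in Ctrl, 8306 and 8168 in Oxali and 10456 and 9703 in Cispl cells. It fell by 0.14 on the log2 scale after Oxali (SE 0.055, DESeq2 adjusted p = 0.0374) and rose by 0.15 (SE 0.054, DESeq2 adjusted p = 0.0239) after Cispl. The calls for Rpl3, Rpl10a and Rps20 in Oxali against Ctrl were not made without Ctrl replicate 1 (log2 fold change -0.12, -0.11 and -0.08) or without Oxali replicate 1 (-0.12, -0.12 and -0.16), and that for Rps20 not without Oxali replicate 2 (-0.13). Over the 17 alternative fits, without a minimum fold change, Rpl3 passed in 15, Rpl10a in 10 and Rps20 in 12.

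**Figure D2:**
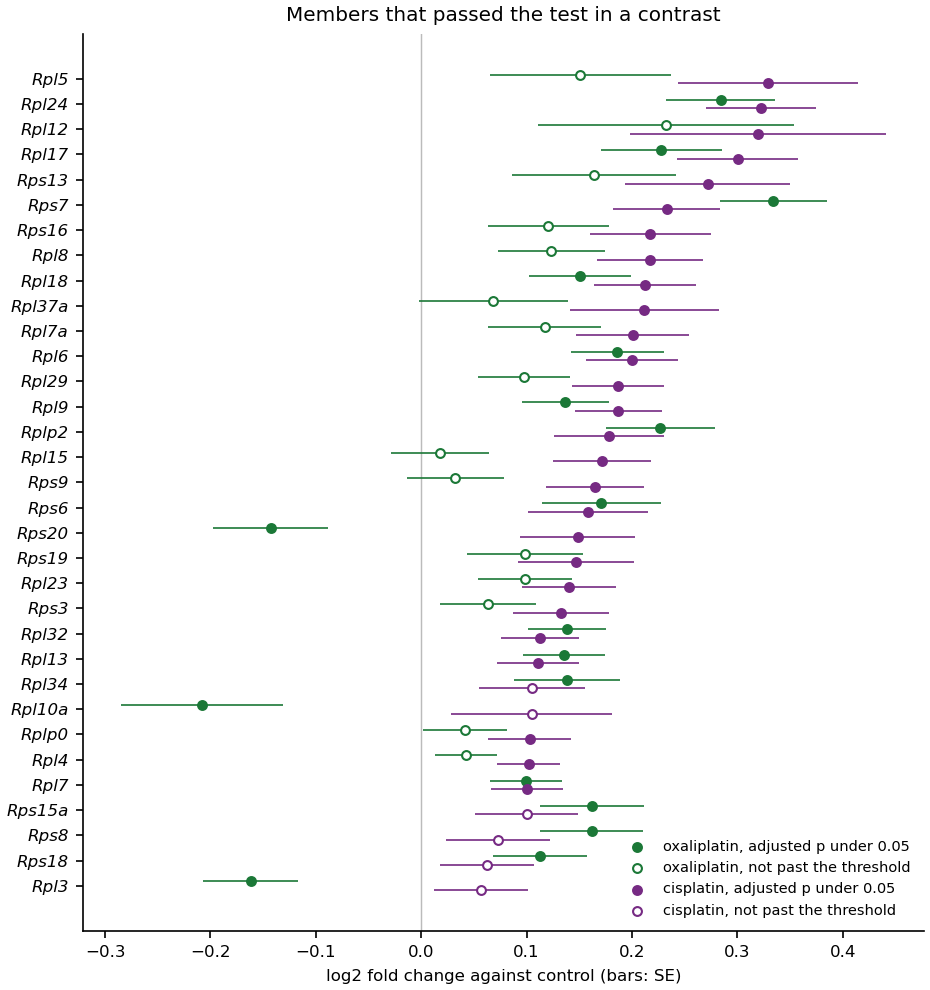
Log2 fold change against Ctrl (x axis, bars show the SE) of the 33 members that passed the test in at least 1 contrast, ordered by the value for Cispl, with Oxali in green and Cispl in purple and filled points for an adjusted p under 0.05. Rpl3, Rpl10a and Rps20 lie left of 0 after Oxali, and every value for Cispl lies right of 0. Both sets of values share the Ctrl libraries.

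After Cispl, 27 members were higher (15.7% of all genes tested) and 0 lower (12.4% of all genes). With scaling by total count, 15 members were higher and 0 lower (1824 and 2376 of all 14956 genes). The median log2 fold change of members was then 0.0523, against -0.0487 for all genes. In DESeq2, 34 members passed an unadjusted p under 0.05 in either direction. By edgeR, 26 members were higher and 0 lower (3095 and 3017 of all 14956 genes). In the main fit the median log2 fold change was 0.10 (1.07-fold), against -0.0008 for all genes, with 68 of 76 positive and a range from -0.12 to 0.51. Rpl27, at the top of that range, had 1541 and 1026 in Ctrl, 1365 and 1557 in Oxali and 1784 and 1861 in Cispl cells. Its libraries of Ctrl were far apart, and it did not pass alone, at 0.51 (SE 0.25, DESeq2 adjusted p = 0.106), whereas with its copies the log2 fold change was 0.20 (SE 0.046, DESeq2 adjusted p = 0.000213).

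Rpl5 had 1454 and 1435 in Ctrl, 1559 and 1649 in Oxali and 1697 and 1932 in Cispl cells, which gave 0.33 (SE 0.086, DESeq2 adjusted p = 0.000804) on the log2 scale. Together with Gm15500 and its other copies the change was 0.09 (SE 0.036, DESeq2 adjusted p = 0.0367). Among called members, Rpl24 had the second largest change after Cispl, 0.32 (SE 0.052, DESeq2 adjusted p = 1.07e-08), and 0.26 (SE 0.038, DESeq2 adjusted p = 1.78e-10) with copies. Rpl12 had 1247 and 949 in Ctrl, 1249 and 1329.5 in Oxali and 1391 and 1347 in Cispl cells. It rose by 0.32 (SE 0.12, DESeq2 adjusted p = 0.0299), and by 0.11 (SE 0.044, DESeq2 adjusted p = 0.0338) with copies. For Rpl17 the value was 0.30 (SE 0.057, DESeq2 adjusted p = 2.06e-06) alone and -0.02 (SE 0.040, DESeq2 adjusted p = 0.733) with copies. Rps13, a protein of the small subunit body, had 2385 and 2197 in Ctrl, 2528 and 2605 in Oxali and 2594 and 2937 in Cispl cells. Its change was 0.27 (SE 0.078, DESeq2 adjusted p = 0.00269), and 0.16 (SE 0.051, DESeq2 adjusted p = 0.00658) with copies. Rps7 had 0.23 (SE 0.051, DESeq2 adjusted p = 4.12e-05) alone and 0.03 (SE 0.045, DESeq2 adjusted p = 0.646) with copies.

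Members with few reads on copies do not depend on that division. Rpl8, which contacts the peptidyl transferase centre and whose counts were whole in every library, had 36284 and 32202 in Ctrl, 37421 and 37190.4 in Oxali and 40124 and 39470.2 in Cispl cells, a log2 change of 0.22 (SE 0.051, DESeq2 adjusted p = 0.000144) after Cispl and of 0.12 (SE 0.051, DESeq2 adjusted p = 0.0557) after Oxali. Rpl18 had 10466 and 9554 in Ctrl, 11099 and 11121 in Oxali and 11749.7 and 11444 in Cispl cells, with 0.21 (SE 0.049, DESeq2 adjusted p = 0.000107) after Cispl. Of the 25 members whose copies held under 1%, 9 were called higher after Cispl and 5 after Oxali, and the same 9 and 5 members were also called with copies added. Of the 23 members whose copies held over 50%, 10 were called after Cispl alone and 4 of these also with copies. After Oxali 7 of the 23 were called alone and 2 of these also with copies. Over all members, 22 were higher after Cispl with copies added (15.8% of the 14718 genes then tested) and 13 after Oxali (10.8%). Of these, 21 and 10 had also been called alone, and the median log2 fold changes with copies were 0.08 and 0.07.

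**Figure D3:**
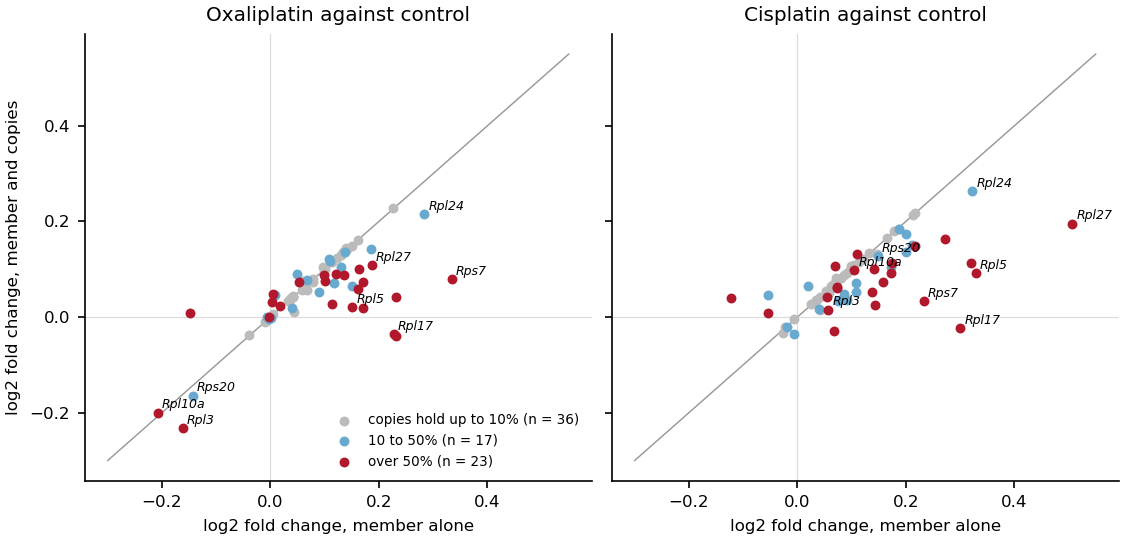
Log2 fold change of each of the 76 members after Oxali (left) and Cispl (right), with the member alone on the x axis and with the counts of its copies added on the y axis. Grey, blue and red points are members whose copies held up to 10% (n = 36), 10 to 50% (n = 17) and over 50% (n = 23) of the joint count, and the diagonal marks equal values. Rps7 and Rpl17 lie near 0 on the y axis, while Rpl3, Rpl10a and Rps20 after Oxali lie near the diagonal.

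The drugs were then compared with each other at equal dose and time. In Oxali against Cispl, 0 members were higher (8.62% of all genes tested) and 5 lower (11.3% of all genes), and 10 passed an unadjusted p under 0.05 in DESeq2. Of the 5 lower members edgeR called 4, all but Rps9, and it called 0 members higher (2304 higher and 2469 lower of all 14956 genes). The median log2 difference of the 76 members was -0.02, against -0.0033 for all genes tested. With scaling by total count both medians were positive, 0.0175 for members and 0.0309 for all genes. With length and GC trends removed they were 0.0165 and -0.0057. The split of calls also moved. With scaling by total count, 2 members were higher and 4 lower (1622 and 1364 of all 14956 genes), and Rps9 was not called. With the trends removed, 7 were higher and 5 lower (1238 and 1811 of all genes). Rps20 was lower after Oxali than after Cispl, with a log2 difference of -0.29 (SE 0.054, DESeq2 adjusted p = 1.83e-06). That of Rpl10a was -0.31 (SE 0.077, DESeq2 adjusted p = 0.000463) and that of Rpl3 -0.22 (SE 0.045, DESeq2 adjusted p = 1.72e-05). In all 3, each Oxali library lay below each Cispl library, and with copies the differences were -0.29, -0.30 and -0.25. Rpl15 of the large subunit had 10928 and 10282 in Ctrl, 10530.0 and 10948 in Oxali and 12222 and 11668 in Cispl cells. Its difference was -0.15 (SE 0.046, DESeq2 adjusted p = 0.00603) alone and -0.07 (SE 0.038, DESeq2 adjusted p = 0.195) with copies. Rps9, which helps the small subunit keep its reading accuracy, had 17799.6 and 16441 in Ctrl, 17475 and 17545 in Oxali and 19699 and 18685 in Cispl cells and differed by -0.13 (SE 0.046, DESeq2 adjusted p = 0.0214). Rpl12 passed with copies only, at -0.15 (SE 0.044, DESeq2 adjusted p = 0.00353). Rpl3 and Rps20 kept their calls in this contrast in all 17 alternative fits, although Rpl3 is under a minimum log2 fold change of 0.25, and Rpl10a lost its call without Oxali replicate 1 or either Cispl replicate (log2 difference -0.22, -0.32 and -0.30). Without Oxali replicate 1 or without Cispl replicate 1, Rpl15 (-0.13 and -0.12) and Rps9 (-0.13 and -0.09) were not called. The median log2 difference of members was -0.0078 without Oxali replicate 1, -0.0133 without Ctrl replicate 1 and -0.0136 without Ctrl replicate 2.

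**Figure D4:**
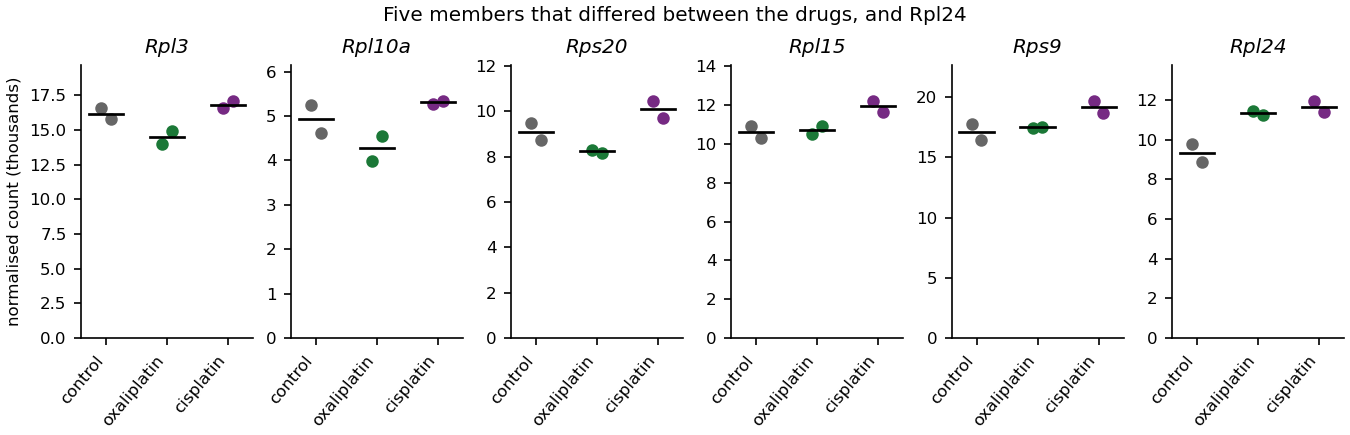
Normalised counts (in units of 1000, linear axes from 0) of the 5 members that differed between the drugs and of Rpl24 in each library, with points for the 2 libraries of a group and a line for their mean. Oxali libraries lie lowest for Rpl3, Rpl10a and Rps20, and Cispl libraries highest for Rpl15 and Rps9.

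Of the 76 members, 11 were called higher after both drugs, 4 after Oxali alone and 16 after Cispl alone, and 43 were called in no contrast. Of all genes tested, 10.7% were higher after Oxali and 15.7% after Cispl. The shares of all genes called after both drugs or in no contrast were not counted. Both contrasts share the Ctrl libraries, so that joint calls are not independent. An effect called after 1 drug and not after the other is not a difference between them: of the members called higher after only 1 drug, Rps20, Rpl15 and Rps9 differed in the direct test. Members called higher after both were Rpl24, Rpl17, Rpl6, Rplp2, Rpl18, Rpl9, Rpl32, Rpl13, Rpl7, Rps6 and Rps7, and Rps20 was lower after Oxali and higher after Cispl.

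The name rule splits the members into large and small subunit genes. After Oxali, 10 of 46 large subunit genes were higher and 2 lower, and 5 of 30 small subunit genes were higher and 1 lower. Of all genes tested, 10.7% were higher and 9.50% lower. Median log2 fold changes of large and small subunit genes were 0.10 and 0.08. After Cispl, 19 of 46 large and 8 of 30 small subunit genes were higher (15.7% of all genes), with medians of 0.1050 and 0.0852. Between the drugs, 3 large (6.52%) and 2 small (6.67%) subunit genes were lower after Oxali, under the 11.3% of all genes. Their medians were -0.02 and -0.0065. The large minus small difference of medians was 0.02 after each drug and -0.01 between them. After Oxali it was -0.0011 with copies added, which turned its sign, and 0.0063 with length and GC trends removed. The difference of the subunits was not tested, since genes are not replicates.

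**Figure D5:**
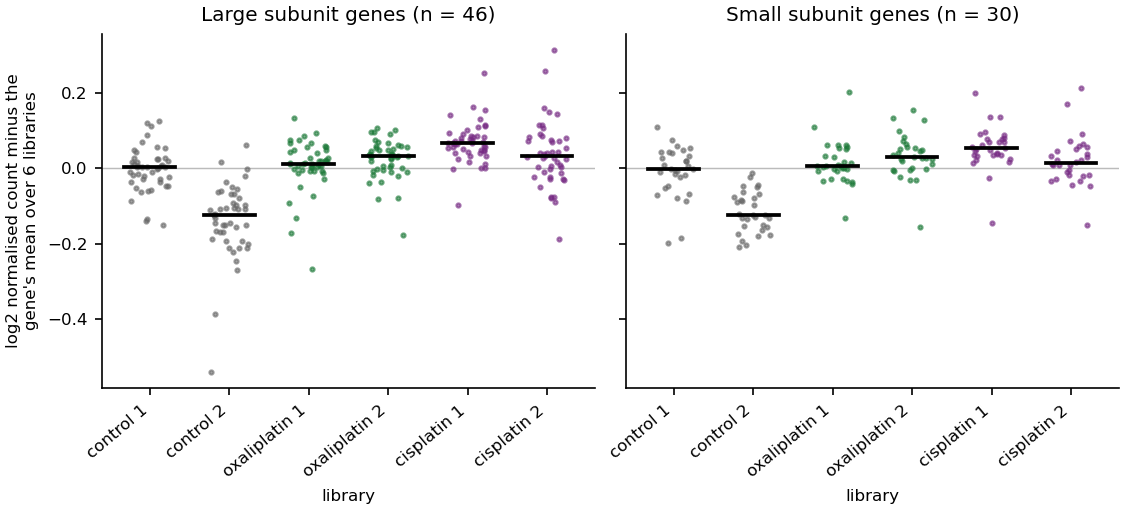
Log2 normalised count of each member minus its mean over the 6 libraries (y axis) by library, for 46 large subunit genes (left) and 30 small subunit genes (right), with a black line at the median. Ctrl replicate 2 has a median of -0.12 in both panels, below each of the other 5 libraries, whose medians lie between -0.0017 and 0.0675.

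The 2 untreated libraries did not hold these genes at 1 level. In Ctrl replicate 1, 72 of 76 members had a higher normalised count than in Ctrl replicate 2, with a median log2 ratio of 0.12. Over all genes tested 49.6% were higher and the median was -0.0010. The same ratio was -0.01 in Oxali and 0.04 in Cispl. The number of calls changed with the Ctrl library used. Without Ctrl replicate 1, 43 members were higher and 0 lower after Oxali (6.80% and 4.78% of all genes then tested), and 48 were higher and 0 lower after Cispl (11.1% and 7.25%), with medians of 0.15 and 0.16. Without Ctrl replicate 2, 5 of 76 were higher and 4 lower after Oxali (6.79% and 5.24% of all genes), shares close to those of all genes, and 10 of 76 were higher and 0 lower after Cispl (9.72% and 5.84%), with medians of 0.03 and 0.04. After Oxali, 8 were higher and 0 lower without Oxali replicate 1 (4.43% and 3.79% of all genes), and 3 higher and 2 lower without Oxali replicate 2 (5.07% and 4.33%). After Cispl, 12 were higher and 1 lower without Cispl replicate 1 (9.04% and 5.21%), and 16 higher and 0 lower without Cispl replicate 2 (8.28% and 5.84%). Rpl24 was called higher after each drug whichever library was left out. The members are also short, with a median transcript length of 882 bases against 2760.5 of all genes tested. With each library's trend on length and GC content removed, the member medians were 0.05 after Oxali and 0.03 after Cispl. Those of all genes tested were -0.0010 and 0.0017. After Cispl, 16 of 76 members were then higher and 4 lower, against 2570 and 1653 of all 14956 genes. The part of Ctrl replicate 2 and of transcript length in the rises was not tested.

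Counts by role are small and are read against the 10.7% of all genes higher after Oxali and the 15.7% higher after Cispl. The P stalk, which binds elongation factors, had 1 of 3 genes higher after Oxali (Rplp2) and 2 of 3 after Cispl (Rplp2 and Rplp0). Rplp0, the scaffold of the stalk, had 70979.5 and 65674 in Ctrl, 70086 and 70555 in Oxali and 74168 and 72574 in Cispl cells, and 0.10 (SE 0.040, DESeq2 adjusted p = 0.0335) after Cispl. Of the 5S particle, Rpl5 rose after Cispl, while Rpl11 had log2 fold changes of 0.05 and -0.05 and passed in neither contrast. Around the exit tunnel, 1 of 8 genes was higher after Oxali (Rpl17) and 2 of 8 after Cispl (Rpl17 and Rpl4). Rpl4 had 41948 and 40752 in Ctrl, 42563 and 42601 in Oxali and 44785 and 43959.6 in Cispl cells, with 0.10 (SE 0.030, DESeq2 adjusted p = 0.00309) after Cispl. At the peptidyl transferase centre and the L1 stalk, 2 of 3 genes were lower after Oxali (Rpl3 and Rpl10a), against 9.50% of all genes. Rpl10 did not pass, at -0.15 (SE 0.11, DESeq2 adjusted p = 0.372). Its copies Rpl10-ps1 and Rpl10-ps3, which held most of the joint count, had log2 fold changes of 0.06 and -0.04. Of 7 genes at the decoding site and the messenger RNA path, 0 passed after Oxali by DESeq2 (0 at an unadjusted p under 0.05, 0 by edgeR) and 1 rose after Cispl, Rps3 at the messenger RNA entry, with 0.13 (SE 0.046, DESeq2 adjusted p = 0.0153). Of the 3 intersubunit bridge genes, Rpl24 rose after both drugs, and Rpl19 and Rpl41 passed in neither. Rps27a, made as a fusion with ubiquitin, had values of 0.11 and 0.02 and did not pass. Of 10 members mutated in Diamond-Blackfan anaemia, 1 rose after Oxali (Rps7), a share near that of all genes, and 3 after Cispl (Rps7, Rps19 and Rpl5). Rps7 passed in neither contrast with copies added, nor did Rpl17 at the exit tunnel.

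The relatives outside the name rule were 12 genes, of which 8 were tested. Rpl22l1, a paralog that can stand in for Rpl22, had normalised counts of 1987 and 1754 in Ctrl, 1083 and 1105 in Oxali and 1814 and 1820.2 in Cispl cells. It fell after Oxali, with a log2 change of -0.77 (SE 0.084, DESeq2 adjusted p = 5.1e-18), and had -0.04 (SE 0.082, DESeq2 adjusted p = 0.76) after Cispl. The fall after Oxali was larger than that of any member. The member Rpl22 itself had log2 fold changes of 0.0042 and 0.0337 and passed in neither contrast. Rpl7l1, linked to ribosome assembly, had 3524 and 3592 in Ctrl, 4409.9 and 4502 in Oxali and 4179.7 and 4228 in Cispl cells and rose by 0.32 (SE 0.049, DESeq2 adjusted p = 7.91e-10) after Oxali and by 0.24 (SE 0.049, DESeq2 adjusted p = 8.95e-06) after Cispl. Rpl36al had 2411 and 2420.3 in Ctrl, 2988 and 2739 in Oxali and 2598 and 2329 in Cispl cells, with 0.25 (SE 0.075, DESeq2 adjusted p = 0.00637) after Oxali. Fau, the precursor of the small subunit protein of that name, had 8755 and 7934 in Ctrl, 8243 and 8748 in Oxali and 10363 and 9292 in Cispl cells and 0.24 (SE 0.065, DESeq2 adjusted p = 0.00175) after Cispl. Rps3a1 had 27609 and 26617 in Ctrl, 27473 and 28203 in Oxali and 30537 and 29634 in Cispl cells and 0.15 (SE 0.035, DESeq2 adjusted p = 0.000146) after Cispl. Rps27l and Rps27rt passed in no contrast. Rpl10l, Rpl39l and Rps4l had 0 counts in all libraries, which allows up to 0.125 to 0.141 CPM (3 counts), and Rpl3l had at most 1 count. Only counting error enters this limit, because no molecular identifiers marked which reads came from the same molecule.

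Other genes of translation were read beside the members. Of 17 translation and growth genes whose messenger RNAs carry TOP motifs, 10 were higher after Oxali (10.7% of all genes tested) and 11 after Cispl (15.7%). After either drug 0 were lower (9.50% and 12.4% of all genes), and the median log2 fold changes were 0.11 and 0.12. Between the drugs 1 was higher and 8 lower after Oxali (8.62% and 11.3% of all genes tested). The higher one was Npm1, a nucleolar chaperone of ribosome assembly, with a log2 difference of 0.26 (SE 0.036, DESeq2 adjusted p = 8.10e-12), and it was named after its value was seen. Pabpc1, the poly(A)-binding protein, had 32505 and 32579 in Ctrl, 32144 and 32787 in Oxali and 41458 and 42442 in Cispl cells, a change of 0.37 (SE 0.029, DESeq2 adjusted p = 3.17e-33) after Cispl and of -0.0034 (SE 0.030, DESeq2 adjusted p = 0.958) after Oxali. Nap1l1, a histone chaperone, changed by 0.40 (SE 0.033, DESeq2 adjusted p = 1.49e-31) after Cispl, Hnrnpa1, a splicing factor, by 0.37 (SE 0.039, DESeq2 adjusted p = 8.97e-20), and Btf3, part of the nascent polypeptide-associated complex, by 0.23 (SE 0.036, DESeq2 adjusted p = 3.61e-09). Of 8 chaperones and assembly genes of ribosomal proteins, 4 were higher after Oxali and 3 after Cispl. Grwd1, the chaperone of Rpl3, had 877 and 823 in Ctrl, 1153 and 1178 in Oxali and 1158 and 1164 in Cispl cells and rose by 0.46 (SE 0.088, DESeq2 adjusted p = 3.48e-06) after Oxali and by 0.45 (SE 0.088, DESeq2 adjusted p = 3.78e-06) after Cispl, whereas Rpl3 itself was lower after Oxali. Ltv1, an assembly factor of the small subunit that contacts Rps20 and Rps3, had 1176 and 1167 in Ctrl, 1497 and 1519.7 in Oxali and 1466 and 1500.1 in Cispl cells and rose by 0.36 (SE 0.076, DESeq2 adjusted p = 1.92e-05) after Oxali and by 0.34 (SE 0.076, DESeq2 adjusted p = 6.32e-05) after Cispl. Heatr3, which carries Rpl5 and Rpl11 to the nucleus, rose by 0.28 (SE 0.059, DESeq2 adjusted p = 3.26e-05) after Oxali and by 0.34 (SE 0.059, DESeq2 adjusted p = 1.37e-07) after Cispl. Of 78 mitochondrial ribosomal proteins, encoded by separate nuclear genes, 25 were higher and 1 lower after Oxali and 17 higher and 2 lower after Cispl. Mrpl49 had 1526 and 1546 in Ctrl, 1677 and 1696 in Oxali and 2177 and 2187 in Cispl cells, with 0.51 (SE 0.067, DESeq2 adjusted p = 1.13e-12) after Cispl, and Mrps6 changed by 0.48 (SE 0.072, DESeq2 adjusted p = 9.92e-10). Between the drugs, 9 of the 78 were higher and 3 lower after Oxali (8.62% and 11.3% of all genes), with a median log2 difference of 0.06.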

How the data were processed

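Per the labels, libraries of TRAMP-C2 cells were made from poly(A) RNA and kept the strand. The authors deposited expected counts per gene, which RSEM estimates by dividing a read that matches several genes among them, with no scaling between libraries. The submitters' processing notes name STAR (version 2.5.3a), RSEM (version 1.3.0) and GRCm38.p6. The annotation release and strand setting behind this table are not given in the sources used here, and for cell culture RNA-seq a different counting program is described in the methods of the study. Reads of overlapping or antisense genes may therefore not be told apart.

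Expected counts were rounded, and a gene was kept if 2 or more libraries had 10 or more counts (14956 genes). DESeq2 (version 1.42.0, R version 4.3.3), which the study's methods name, took the 6 libraries in 1 model of group. Wald tests were two-sided, adjusted by Benjamini-Hochberg over all genes tested, with a threshold of 0.05 and independent filtering at 0.1. "Called", "higher" and "lower" mean past that threshold. The 2 contrasts with Ctrl share its libraries. Symbols and positions came from GENCODE M21 (GRCm38), in which 54409 of 54446 identifiers were found. Transcript length is that of 1 transcript per gene (best APPRIS class, then the longest).

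Copies were genes with a pseudogene biotype or a pseudogene name that matched a member with blastn (version 2.17.0) at 95% identity or more over at least 100 bases (641) or by name only (118). Members, role lists and comparison lists were chosen with earlier results of these data known. The rule for naming members took the 6 called with the largest change in each direction per contrast, the 4 highest and 4 lowest per kilobase of transcript, and those on role lists. Rpl7, Rpl8, Rpl9, Rpl13, Rpl18, Rpl22, Rpl32 and Rps12 fall outside it and were named after their values were seen, as were the copies. Of the comparison lists, up to 4 genes with the smallest adjusted p after Cispl and all relatives were named. Alternatives were edgeR (version 4.0.16), other scalings, filters and sets of libraries, a replicate block, removal of length and GC trends by loess (span 0.5), copies added to members, leaving out each library, and a minimum log2 fold change of 0.25. The tests were checked on simulated data with changes larger than those of any member, so that the check does not cover changes as small as theirs. Total counts were 21345312 to 24041767 per library. Values of some marker and related genes are not reported here.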

Additional observations from a re-analysis of the deposited data

Results flagged for a closer look

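Between the drugs, 5 members differed in the direct test of Oxali against Cispl (DESeq2). The log2 differences were -0.31 for Rpl10a, -0.29 for Rps20, -0.22 for Rpl3, -0.15 for Rpl15 and -0.13 for Rps9, all lower after Oxali. Of the relatives outside the name rule, Rpl22l1 differed by -0.73, Fau by -0.21 and Rps3a1 by -0.11, and Rpl36al by 0.22, higher after Oxali. Of the other translation genes named, Pabpc1 differed by -0.37, Hnrnpa1 by -0.20, Nap1l1 by -0.17 and Btf3 by -0.12, while Npm1 differed by 0.26, higher after Oxali. The mitochondrial ribosomal protein genes Mrpl49 and Mrps6 differed by -0.37 and -0.27, and Mrpl47 and Mrpl35 by 0.40 and 0.31. Apart from Npm1, Mrpl47 and Mrpl35, which were named after their values were seen, the translation and mitochondrial genes here had been chosen for a small adjusted p after Cispl. Groups of 2 libraries are too small to look for an outlying sample.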

How the results depend on the processing

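With a minimum log2 fold change of 0.25, calls fell to 2 after Oxali, 5 after Cispl and 2 between the drugs. The same counts over all genes were not made. Scaling by total count left 15 calls after Cispl, all higher (1824 of all 14956 genes were higher). With only the 4 libraries compared, 9 members differed between the drugs, 1 higher and 8 lower (1275 and 1609 of all 14618 genes then tested). With length and GC trends removed 12 did, 7 higher and 5 lower (1238 and 1811 of all 14956 genes). The trend removal gave a median of 0.0259 after Cispl, against 0.0017 for all genes tested. Large minus small subunit differences were then 0.0063 after Oxali, 0.0328 after Cispl and -0.0189 between the drugs. With copies added these differences were -0.0011, 0.0314 and -0.029, and the log2 fold change of Rpl17 turned to -0.0351 after Oxali and -0.0226 after Cispl. The share of counts held by members was 4.77% as a mean over libraries and 6.54% with copies. Leaving out 1 library gave 5 to 43 calls after Oxali, 10 to 48 after Cispl and 2 to 9 between the drugs. The medians were then 0.0289 to 0.152, 0.0386 to 0.164 and -0.0356 to 0.0059, and the large minus small differences 0.0054 to 0.0223, 0.0146 to 0.0274 and -0.0171 to -0.0036. The cause of these shifts was not tested, and fits with 1 library left out also hold fewer libraries. Replicate numbers did not pair the libraries: deviations of libraries with the same number correlated at 0.0091, 0.04 and -0.0098. With a replicate block, 16 members were called after Oxali, 23 after Cispl and 4 between the drugs, where Rpl10a lost its call. Of all 14956 genes, 1958, 2833 and 1861 were then called. In each of the 17 alternative fits, which leave out the minimum fold change, 2 members were called after Oxali (Rpl24 and Rplp2), 6 after Cispl (Rpl6, Rpl7a, Rpl9, Rpl18, Rpl24 and Rpl29) and 2 between the drugs (Rpl3 and Rps20).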
